A study of Mus musculus with 12 samples.

Results

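Mitosis and chromosome segregation were followed through 55 genes, which were chosen by name among the 23420 genes of the deposited count table as mitotic cyclins and their regulators, mitotic kinases, checkpoint and anaphase genes, kinetochore genes, kinesins, spindle proteins, cytokinesis genes and condensins. All 55 had a row in the table, and all 55 were among the 9742 genes that passed the filter on low counts. The genes were read in monocytic myeloid-derived suppressor cells (M-MDSCs, immature monocyte-like cells), sorted as CD11b+Ly6G-Ly6Chi from the bone marrow of male C57BL/6JNIA mice, the inbred strain of the NIA aging colony. Young mice were 6 months old and aged mice 24 months old, with 6 mice and 6 libraries of each age, and no treatment or engineered allele is given for either age. The comparison asked how the RNA of M-MDSCs from aged mice differs from that of young mice.

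In a dividing cell, cyclin B and the kinase Cdk1 start mitosis, condensins and topoisomerase II compact and untangle the chromosomes, and kinetochores attach them to spindle microtubules along which kinesins work. A checkpoint holds the cell until every chromosome is attached, after which the anaphase-promoting complex with Cdc20 frees separase to part the sister chromatids. The RNA of many of these genes builds up before division and falls after it, so that in bone marrow it is known to come mainly from cycling progenitors and precursors rather than from mature monocytes or neutrophils. In bulk libraries of this kind, fewer dividing cells and less RNA per dividing cell cannot be told apart.

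The levels of marker genes went in part against the label of the libraries. Genes of neutrophil granules were among the most abundant, with Ngp at 39630 ± 3370.1 CPM (counts relative to the library total scaled by TMM factors, mean ± SD, n = 6) in aged and 30944 ± 4421 CPM in young mice, and Ltf, which encodes lactoferrin, at 20903 ± 3279 and 21723 ± 1473 CPM. The 8 monocyte markers summed to 11961 to 17330 CPM in aged and 14733 to 19280 CPM in young mice, most of it from Lyz2 (11222 ± 1459 and 12345 ± 1766 CPM) and Itgam (2895 ± 297 and 3376 ± 118 CPM), which neutrophils are known to express too. The monocyte genes Ccr2 and F13a1 stood at 31.2 ± 22.2 and 21.04 ± 17.98 CPM in aged and at 37.1 ± 14.3 and 26.9 ± 9.94 CPM in young mice, against 605 to 799 CPM in aged and 367 to 595 CPM in young mice for Ly6c2, a gene of the sorted Ly6C antigen. Summed over 9 neutrophil markers, the level was 121157 to 144234 CPM in aged and 77996 to 121388 CPM in young mice, with the lowest sums in young mice 5 and 6 (77996 and 78643 CPM). The libraries are therefore named below by their label only. Library totals were 8737941 to 16300374 fragments in aged and 4613239 to 9079237 in young mice, and every young mouse has a lower sample number in the names of the alignment files than any aged mouse, so that age and whatever these numbers mark, which is not stated, cannot be told apart. Aged mouse 7, the deepest library, and young mice 5 and 6 stood apart in the mitosis genes, and the main counts are given with and without them.

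Of the 55 mitosis genes, 19 were called lower in aged mice, 2 were called higher and 34 were not called at an adjusted p of 0.05 (edgeR's quasi-likelihood test, Benjamini-Hochberg adjustment over 9742 genes). Among all genes tested, 23.0% were called lower and 22.4% higher, 45.4% in either direction, and the higher genes were 49.4% of the called genes, or 37.8% where library totals were used without TMM factors. The fitted log2 fold change of aged over young mice was below 0 for 43 members and above 0 for 12, with a median of −0.26, where the median of all genes tested was 0.01. Chromosome structure genes and condensins held 6 lower members of 8, kinesins 5 of 8 and kinetochore genes 3 of 6, and each of the other 5 groups held 1. The groups differ in exonic length, with medians of 4298, 4309 and 2303 bases in these 3, and after the length correction described below they held 3, 4 and 3 lower members, and the others 0 to 2, where 16.5% of all genes were called lower. No test compared the groups. The proliferation marker Mki67 had the largest difference of all members, and the cyclins, Cdk1, Plk1, both Aurora kinases and Cdc20 were not called.

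**Figure D1:**
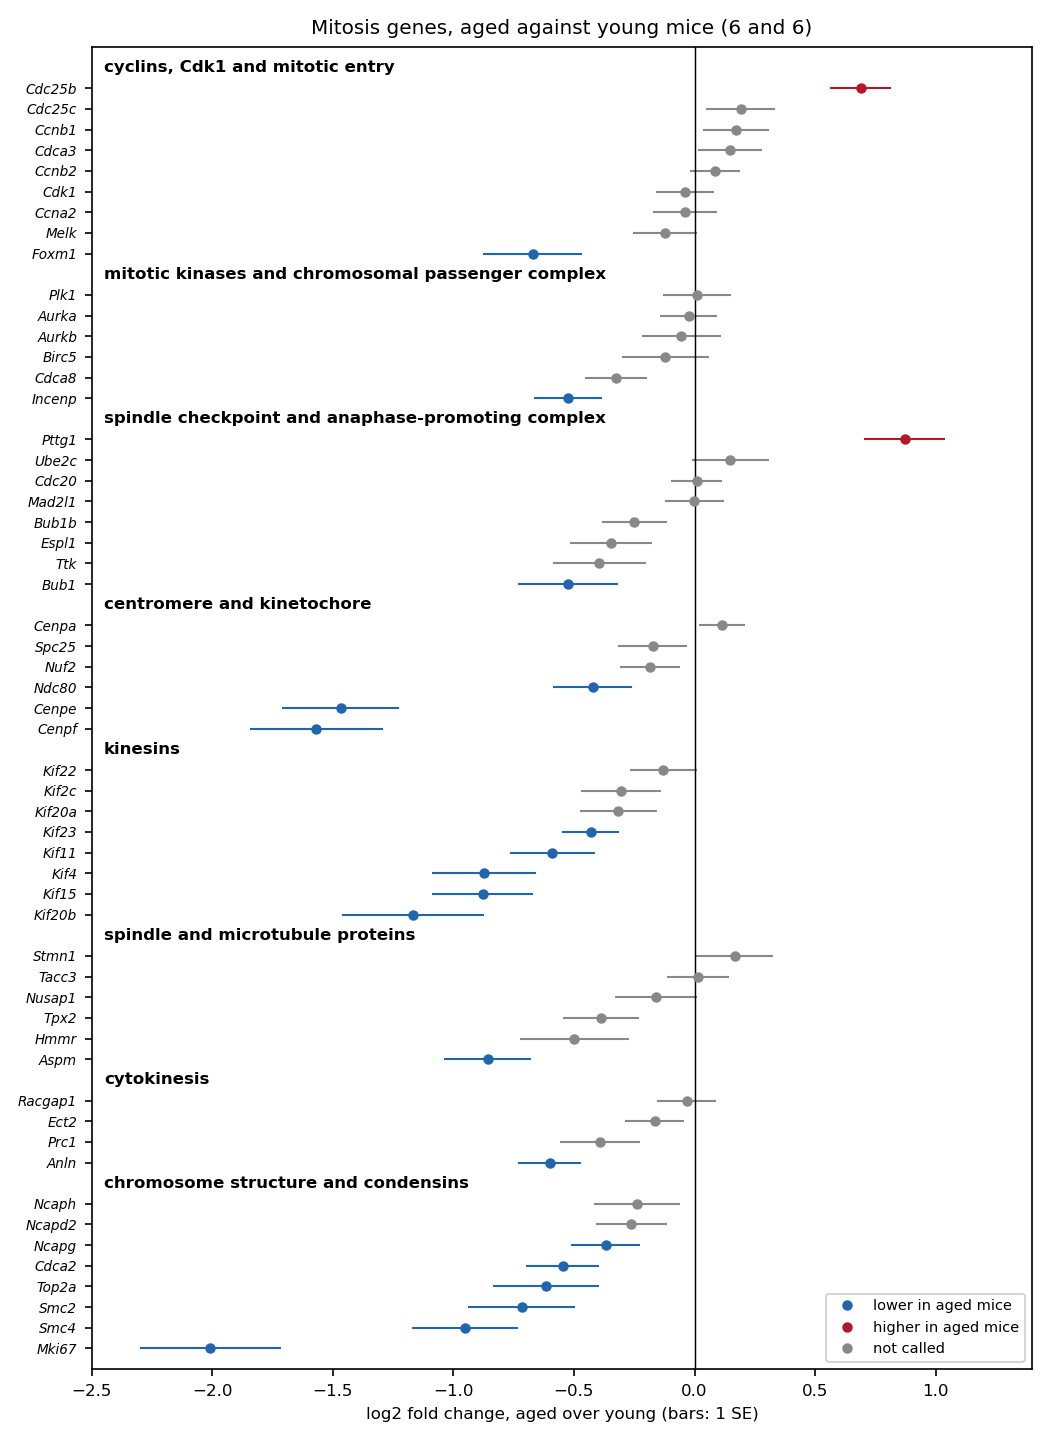
Log2 fold change of each of the 55 mitosis genes, aged over young mice (x axis), with bars of 1 SE from the fit over 6 aged and 6 young mice, ordered within 8 role groups (y axis). Blue points were called lower (19 genes), red points higher (2 genes) and grey points not called (34 genes), with Mki67 farthest to the left at −2.01 and Pttg1 farthest to the right at 0.87.

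Only 4 members had values that did not overlap between the ages, Mki67, Cenpe and Cenpf lower and Cdc25b higher in aged mice, where 21.8% of all genes tested did not overlap (12.1% lower and 9.68% higher). Aged mouse 7 was the highest aged mouse for 52 of the 55 members. Without that mouse, 30 members were called lower, against 24.0% of all genes, and 16 lower and 2 higher members did not overlap, against 15.7% and 13.7% of all genes. Young mice 5 and 6 were the highest young mice for 52 members, and without those 2 mice 9 members were called lower, against 17.9% of all genes, with a member median of −0.11. These 9 were Mki67, Cenpe, Cenpf, Smc4, Aspm, Anln, Kif4, Kif15 and Kif23. The 10 that lost their call without those 2 mice still had values below 0, from −0.72 for Kif20b to −0.22 for Ncapg, with Smc2 at −0.50, Cdca2 at −0.43, Incenp at −0.36 and Ndc80 at −0.24 among them. Without all 3 mice, 23 members were called lower, the 19 of the whole comparison among them, against 21.0% of all genes, and the same 16 lower and 2 higher members did not overlap as without aged mouse 7 alone, against 17% and 14.8%. Of the 19, the calls of Bub1, Ndc80, Ncapg and Top2a were the least firm, passing in 3, 3, 5 and 6 of the 12 fits that each lacked 1 mouse.

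Below, the values of a gene are its lowest, median and highest CPM over the 6 mice of an age. Mki67 encodes Ki-67, a large protein that coats mitotic chromosomes and is used as a marker of proliferating cells (chr7:135689788-135716379 on mm10, minus strand, exons of 10075 bases). Its level was 63.5, 90.3 and 173 CPM in aged mice and 229, 311 and 674 CPM in young mice. Every aged mouse lay below every young mouse, with aged mouse 7 nearest to the young and young mice 5 and 6 far above the other young mice. The fall was 2.01 ± 0.29 on the log2 scale (SE, adjusted p = 0.00013). Top2a, the topoisomerase that untangles sister chromatids, was the most abundant member per kilobase of exon, with 39.9 CPM per kb in aged and 61.2 CPM per kb in young mice. In single mice, Top2a was at 129, 188 and 376 CPM in aged mice and 257, 294 and 417 CPM in young mice. Aged mouse 7 alone reached into the young range, and the log2 fold change was −0.62 ± 0.22 (adjusted p = 0.032). Top2a was not called after the length correction (−0.41, adjusted p = 0.12) or without young mice 5 and 6 (−0.43, adjusted p = 0.18).

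The condensin complex, which folds mitotic chromosomes into loops, was described by 5 of its genes. Smc4, one of its ATPases, was at 64.2, 68.5 and 152 CPM in aged mice and 119, 145 and 211 CPM in young mice. The other 5 aged mice lay between 64.2 and 74.2 CPM, below every young mouse, while aged mouse 7 at 152 CPM lay within the young range, and Smc4 fell by 0.95 ± 0.22 on the log2 scale (adjusted p = 0.0029). Its partner Smc2 fell by 0.72 ± 0.22 (adjusted p = 0.016), and was not called after the length correction (−0.50, adjusted p = 0.062). Of the non-SMC subunits, 1 of 3 was called. Ncapg was just past the threshold with a log2 fold change of −0.37 ± 0.14 (adjusted p = 0.046). Ncapd2 was not called, with 74.98, 92.2 and 134 CPM in aged mice and 94.4, 109 and 146 CPM in young mice. Ncaph was not called either, with 15.3, 24.3 and 36.8 CPM in aged mice and 20.9, 27.7 and 35.8 CPM in young mice. In both, aged mouse 7 lay among or above the highest young mice, and the log2 fold changes were −0.26 ± 0.15 and −0.24 ± 0.18. Cdca2, which recruits protein phosphatase 1 to chromosomes at mitotic exit, fell by 0.55 ± 0.15 (adjusted p = 0.0091).

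At the kinetochore, the 2 genes with the longest exons had the largest differences. Cenpf, a protein of the nuclear matrix and outer kinetochore, lies on chr1:189640614-189688086 and has exons of 11122 bases, and Cenpe, the kinesin that brings chromosomes to the spindle equator, lies on chr3:135212563-135273540 with 7813 bases. Cenpf was at 13.3, 18.8 and 46.3 CPM in aged mice and 49.7, 56.4 and 95.8 CPM in young mice. Cenpe was at 10.4, 12.9 and 25.9 CPM in aged mice and 29.3, 33.8 and 62.9 CPM in young mice. For both genes the aged and young mice formed separate ranges, and the log2 fold changes were −1.57 ± 0.27 (adjusted p = 0.0005) and −1.47 ± 0.24 (adjusted p = 0.00034). The members from the 4-subunit Ndc80 complex, which grips the microtubule, had smaller differences. Ndc80 itself was called with a log2 fold change of −0.42 ± 0.17 (adjusted p = 0.048). Nuf2, its partner, was not called, with 23.1, 29.4 and 37.97 CPM in aged mice and 28.9, 33.2 and 39.6 CPM in young mice. Spc25, which links the complex to the inner kinetochore, was at 17.3, 21.3 and 31.4 CPM in aged mice and 18.4, 25.7 and 29.5 CPM in young mice. The ranges overlapped for both, with log2 fold changes of −0.19 ± 0.13 and −0.17 ± 0.14. After the length correction described below, Ndc80, Nuf2 and Spc25 had values of −0.50, −0.24 and −0.37, and Cenpf and Cenpe −0.98 and −1.07. Spc24, the subunit outside the 55, was not called at −0.20, and was called lower with the correction (−0.45, adjusted p = 0.040). Cenpa, the histone variant that marks centromeres, was at 38.5, 45.7 and 49.3 CPM in aged mice and 34.2, 44.3 and 46.7 CPM in young mice. Its 2 ranges nearly coincided, and its log2 fold change was 0.11 ± 0.10.

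All 8 kinesins had a fitted value below 0, and 5 were called. Kif20b, a kinesin of late cytokinesis, was at 7.57, 10.1 and 24.7 CPM in aged mice and 18, 21.7 and 43.7 CPM in young mice. The other 5 aged mice lay below every young mouse, and aged mouse 7 lay within the young range. The fall of Kif20b was 1.17 ± 0.29 on the log2 scale (adjusted p = 0.0052). Kif15, which helps to hold the spindle poles apart, was at 22.03, 27.4 and 52.4 CPM in aged mice and 45.7, 48.6 and 79.97 CPM in young mice. It had the smallest p-value among the kinesins and a log2 fold change of −0.88 ± 0.21 (adjusted p = 0.0036). Kif4, a chromokinesin that acts with condensin and at the midzone, fell by 0.87 ± 0.22, Kif11, the motor that separates the poles, by 0.59 ± 0.18, and Kif23, the motor of centralspindlin, by 0.43 ± 0.12 (adjusted p = 0.0045, 0.014 and 0.008). Kif11 was not called after the length correction (−0.41, adjusted p = 0.057), and without young mice 5 and 6 neither Kif11 (−0.39, adjusted p = 0.11) nor Kif20b (−0.72, adjusted p = 0.055) was called. The other 3 kinesins were not called. Kif20a, which carries the passenger complex to the midzone, was at 27.9, 37.3 and 59.5 CPM in aged mice and 41.4, 47.03 and 61.9 CPM in young mice. Kif2c, a microtubule depolymerase at centromeres, was at 15.5, 18.7 and 29.6 CPM in aged mice and 18.8, 23.7 and 32.4 CPM in young mice. Kif22, which pushes chromosome arms outward, was at 22.1, 31.6 and 40.4 CPM in aged mice and 28.9, 31.7 and 44.3 CPM in young mice. Their ages overlapped, the highest aged value being that of mouse 7 each time, and the log2 fold changes were −0.32, −0.30 and −0.13.

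Of the genes that start mitosis, 7 of 9 were not called, where 45.4% of all genes tested were called in either direction. Ccnb1, cyclin B1, was at 18.6, 28.6 and 37.03 CPM in aged mice and 21.9, 25.1 and 29.2 CPM in young mice. Cdk1, its kinase, was at 35.1, 43.1 and 58.5 CPM in aged mice and 35.9, 46.3 and 50.9 CPM in young mice. The aged range held the young range within it for both, and the log2 fold changes were 0.17 and −0.04, with half-widths of the 95% interval of 0.30 and 0.27. Ccnb2, cyclin B2, was at 37.96, 48.2 and 58.9 CPM in aged mice and 41.8, 46.4 and 51.6 CPM in young mice. Ccna2, cyclin A2 of S phase and G2, was at 78.1, 95.9 and 136 CPM in aged mice and 85.3, 101 and 125 CPM in young mice. The log2 fold changes of Ccnb2 and Ccna2 were 0.08 and −0.04, with half-widths of 0.23 and 0.30, so that 0 and changes of either sign lie within the intervals. Cdca3, a trigger of mitotic entry, was at 24.6, 31.4 and 39.03 CPM in aged mice and 20.1, 29.4 and 36.9 CPM in young mice. Melk, a mitotic kinase, was at 10.9, 11.5 and 16.5 CPM in aged mice and 11.5, 13.3 and 17.04 CPM in young mice. Neither was called, with log2 fold changes of 0.15 and −0.12. Foxm1, the transcription factor that drives many genes of G2 and mitosis, was the 1 member of this group called lower. Its values were 23.95, 29 and 43.9 CPM in aged mice and 32.6, 42.4 and 70.5 CPM in young mice. Young mice 5 and 6 were its highest, and the fall was 0.67 ± 0.21 (adjusted p = 0.015). Without those 2 mice the log2 fold change of Foxm1 was −0.34 and was not called (adjusted p = 0.14).

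Of the phosphatases that activate Cdk1, Cdc25b was called higher. Cdc25b (chr2:131186948-131198511) was at 40.1, 47.3 and 69.3 CPM in aged mice and 27.8, 31.1 and 35.2 CPM in young mice. Every aged mouse lay above every young mouse, aged mouse 5 highest, and the log2 fold change was 0.69 ± 0.13 (adjusted p = 0.00066). Cdc25c, of the same family, was at 5.77, 8.63 and 9.03 CPM in aged mice and 5.27, 7.08 and 8.90 CPM in young mice. It was not called, with a log2 fold change of 0.19 ± 0.14.

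Mitotic kinases and the chromosomal passenger complex, the Aurora B assembly that corrects faulty attachments, held 1 called gene of 6, against 45.4% of all genes tested. Plk1, Polo-like kinase 1, was at 32.8, 50.5 and 70.5 CPM in aged mice and 44.9, 50.6 and 55.5 CPM in young mice. Aurka, the kinase of spindle poles, was at 19.8, 28.3 and 36.4 CPM in aged mice and 26.2, 27.97 and 30.8 CPM in young mice. Aurkb, the kinase of the passenger complex, was at 19.4, 23.6 and 37.2 CPM in aged mice and 19.1, 27.2 and 33.9 CPM in young mice. The young mice lay within the aged range for Plk1 and Aurka, aged mouse 7 was highest for all 3 kinases, and the log2 fold changes were 0.01, −0.02 and −0.05. Incenp, the scaffold of the complex, was at 39, 46.3 and 67.6 CPM in aged mice and 55.5, 65.2 and 89.1 CPM in young mice. It fell by 0.52 ± 0.14 (adjusted p = 0.0076), with the other 5 aged mice below every young mouse. Birc5, or survivin, was at 16.5, 23.7 and 27.5 CPM in aged mice and 14.8, 25.9 and 31.5 CPM in young mice. Cdca8, or borealin, was at 23.1, 28.99 and 36.4 CPM in aged mice and 30.01, 37.3 and 43.3 CPM in young mice. Birc5 had a log2 fold change of −0.12 ± 0.18, and Cdca8 one of −0.33 ± 0.13 that just missed the threshold (adjusted p = 0.0502).

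Of 8 checkpoint and anaphase genes, 6 were not called, where 45.4% of all genes tested were called in either direction. Pttg1, securin, the inhibitor that holds separase until anaphase (chr11:43420248-43426248), was at 6.64, 9.61 and 11.9 CPM in aged mice and 4.23, 4.93 and 7.23 CPM in young mice. Aged mouse 7 was the lowest aged mouse and young mouse 1 the highest young mouse, the 2 ranges overlapping only through them, and Pttg1 rose by 0.87 ± 0.17 on the log2 scale (adjusted p = 0.00089). Espl1, separase itself, was not called, with 19.1, 21.9 and 28.6 CPM in aged mice and 21.5, 24.96 and 41.6 CPM in young mice. Bub1, a checkpoint kinase, was called lower, with 11.4, 16.2 and 26.5 CPM in aged mice and 17.8, 22.3 and 35.6 CPM in young mice. Its log2 fold change of −0.53 ± 0.21 was just past the threshold (adjusted p = 0.049) and was not called after the length correction (−0.39, adjusted p = 0.13) or without young mice 5 and 6 (−0.26), and that of Espl1 was −0.34 ± 0.17. Bub1b, which encodes BubR1 of the checkpoint complex, was at 32.2, 36.3 and 53.5 CPM in aged mice and 39.01, 42.3 and 55.8 CPM in young mice. Ttk, the kinase Mps1, was at 8.80, 11.2 and 18.7 CPM in aged mice and 11.3, 15.9 and 21.9 CPM in young mice. Mad2l1, or Mad2, was at 18.2, 24.1 and 30.3 CPM in aged mice and 19.9, 23.9 and 29.8 CPM in young mice. These 3 checkpoint genes were not called, with log2 fold changes of −0.25, −0.40 and −0.00. Cdc20, the activator of the anaphase-promoting complex, was at 42.6, 52.7 and 62.1 CPM in aged mice and 43.95, 50.4 and 63.1 CPM in young mice. Ube2c, its ubiquitin-conjugating enzyme, was at 19.4, 30.5 and 41.3 CPM in aged mice and 21.9, 28 and 33.1 CPM in young mice. The ages overlapped over most of their range in both, with log2 fold changes of 0.01 ± 0.11 and 0.15 ± 0.16.

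Among spindle proteins, Aspm, which focuses microtubules at the spindle poles, had the largest difference. Aspm was at 29.3, 39.6 and 66.2 CPM in aged mice and 57.4, 71.5 and 99.1 CPM in young mice. The other 5 aged mice were below every young mouse, and the fall was 0.86 ± 0.18 (adjusted p = 0.0016). After the length correction the value of Aspm was −0.33 and was not called (adjusted p = 0.086). Hmmr, a spindle assembly protein, was at 15.3, 25.02 and 49.8 CPM in aged mice and 29.4, 36.2 and 49.1 CPM in young mice. Tpx2, the activator of Aurora A on the spindle, was at 34.6, 45.7 and 69.6 CPM in aged mice and 49.8, 60.04 and 78.8 CPM in young mice. Both missed the threshold with log2 fold changes of −0.50 ± 0.23 and −0.39 ± 0.16 (adjusted p = 0.084 and 0.055), and for Hmmr aged mouse 7 was above every young mouse. Nusap1, which bundles spindle microtubules, was at 36.04, 54.1 and 90.6 CPM in aged mice and 52.5, 62.3 and 75.5 CPM in young mice. Tacc3, which crosslinks them, was at 29.7, 35.3 and 47.05 CPM in aged mice and 28.9, 34.9 and 45.1 CPM in young mice. Stmn1, stathmin, which destabilizes microtubules, was at 16.6, 24.8 and 33.8 CPM in aged mice and 17.1, 23.6 and 27.3 CPM in young mice. None of these 3 was called, with log2 fold changes of −0.16, 0.01 and 0.17.

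Of the cytokinesis genes, Anln, the actin-binding scaffold of the cleavage furrow, was called. Anln was at 41.7, 49.2 and 71.8 CPM in aged mice and 69, 73.6 and 96.5 CPM in young mice. The other 5 aged mice lay below every young mouse, and the fall was 0.60 ± 0.13 (adjusted p = 0.002). Prc1, which bundles midzone microtubules, was at 36.9, 49.03 and 77.6 CPM in aged mice and 56.4, 63.1 and 82.8 CPM in young mice. Ect2, which activates RhoA at the furrow, was at 28.02, 33.5 and 47.7 CPM in aged mice and 36.9, 40.2 and 47.3 CPM in young mice. Racgap1, the partner of Kif23 in centralspindlin, was at 57.96, 71.1 and 94.4 CPM in aged mice and 62.6, 75.1 and 88.6 CPM in young mice. These 3 were not called, with log2 fold changes of −0.39, −0.17 and −0.03.

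**Figure D2:**
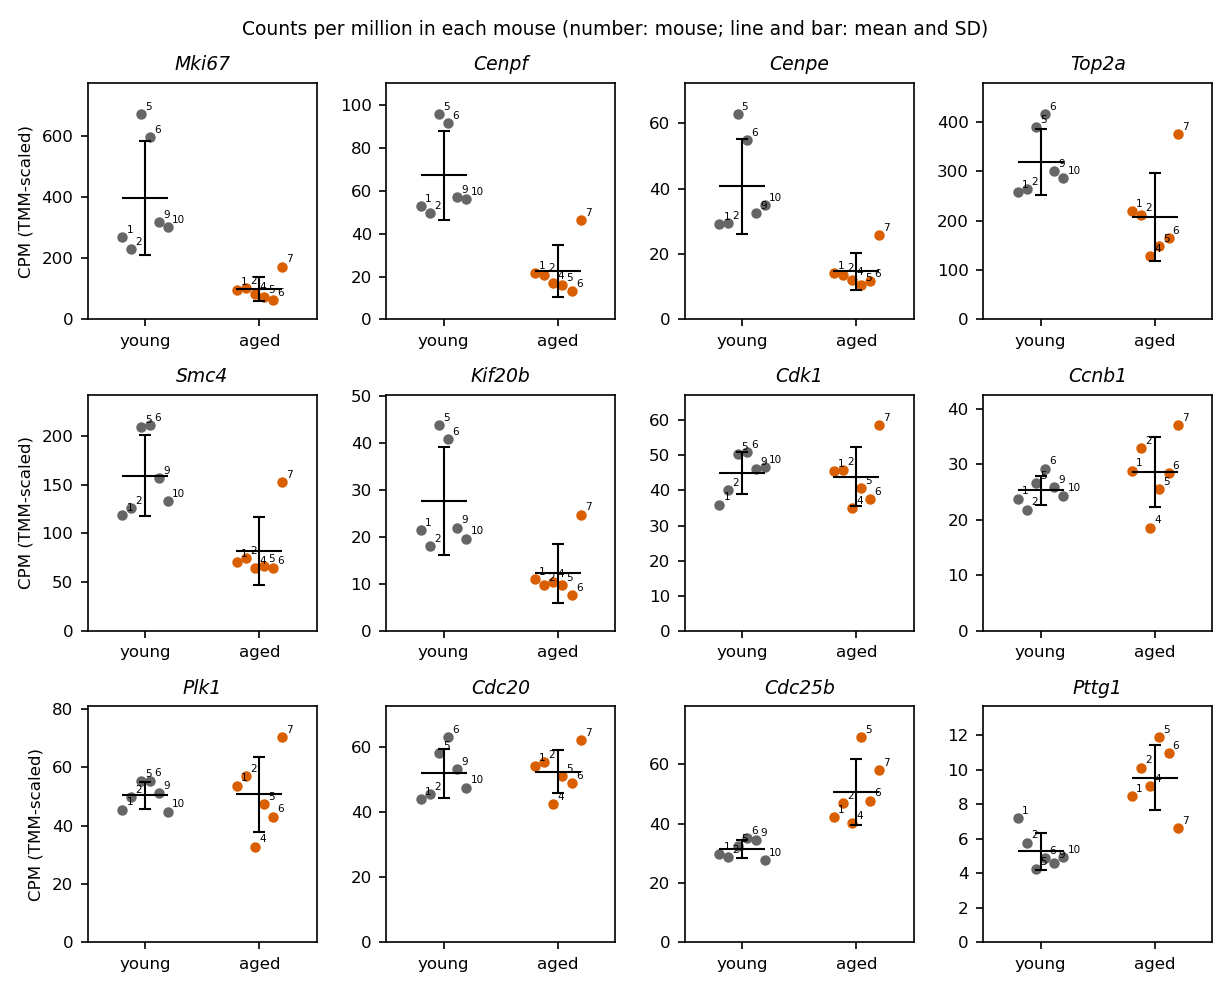
CPM of 12 mitosis genes (y axes, linear from 0) in each of the 6 young and 6 aged mice (x axis), every point 1 mouse with its number, with the mean and SD of each age. Mki67, Cenpf and Cenpe separate the ages with lower aged values, Cdc25b separates them with higher aged values, Cdk1, Ccnb1, Plk1 and Cdc20 overlap, and aged mouse 7 and young mice 5 and 6 lie high in most panels.

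The ratio of 1 member to another within a library does not depend on the scaling of that library, but it moves with length where the 2 genes differ in length. The 6 ratios among Mki67, Top2a, Ccnb1 and Cdk1 are given as a description, without a test, since these genes were chosen with their differences known. Log2 of Mki67 over Cdk1 was 1.12 ± 0.29 in aged and 3.04 ± 0.50 in young mice (SD), a difference of −1.92, and −1.37 after the length correction described below. Mki67 over Ccnb1 differed by −2.11 and Mki67 over Top2a by −1.28 (−1.51 and −0.95 with the correction), and the ages did not overlap for these 3 ratios with or without it. Top2a over Ccnb1 differed by −0.83 without overlap, and by −0.56 with overlap after the correction. Top2a over Cdk1 and Ccnb1 over Cdk1 overlapped in both cases, with differences of −0.64 and 0.19, or −0.43 and 0.13 with the correction.

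Within an age, the members varied together from mouse to mouse. Summed over the 55 genes, the level was 1717, 2150 and 3326 CPM in aged mice (lowest, median and highest) and 2593, 2923 and 4052 CPM in young mice. Aged mouse 4 had the lowest sum and was the lowest aged mouse for 38 members, aged mouse 7 had the highest aged sum, and young mice 5 and 6 had 4052 and 4049 CPM against 2593 to 3010 CPM in the other 4 young mice. After the mean of each age was removed from the log2 CPM, the median Pearson correlation over the 1485 pairs of members was 0.84, against −0.00 over all pairs of tested genes. These correlations describe 12 mice, and all members share library depth and the mice that stand apart. The median was 0.92 among members called lower and 0.83 among members not called. Pttg1 ran against the others with a mean correlation of −0.67, being the only member that was lowest in young mouse 5 among the young and in aged mouse 7 among the aged, and Cdc25b followed them weakly with 0.33.

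**Figure D3:**
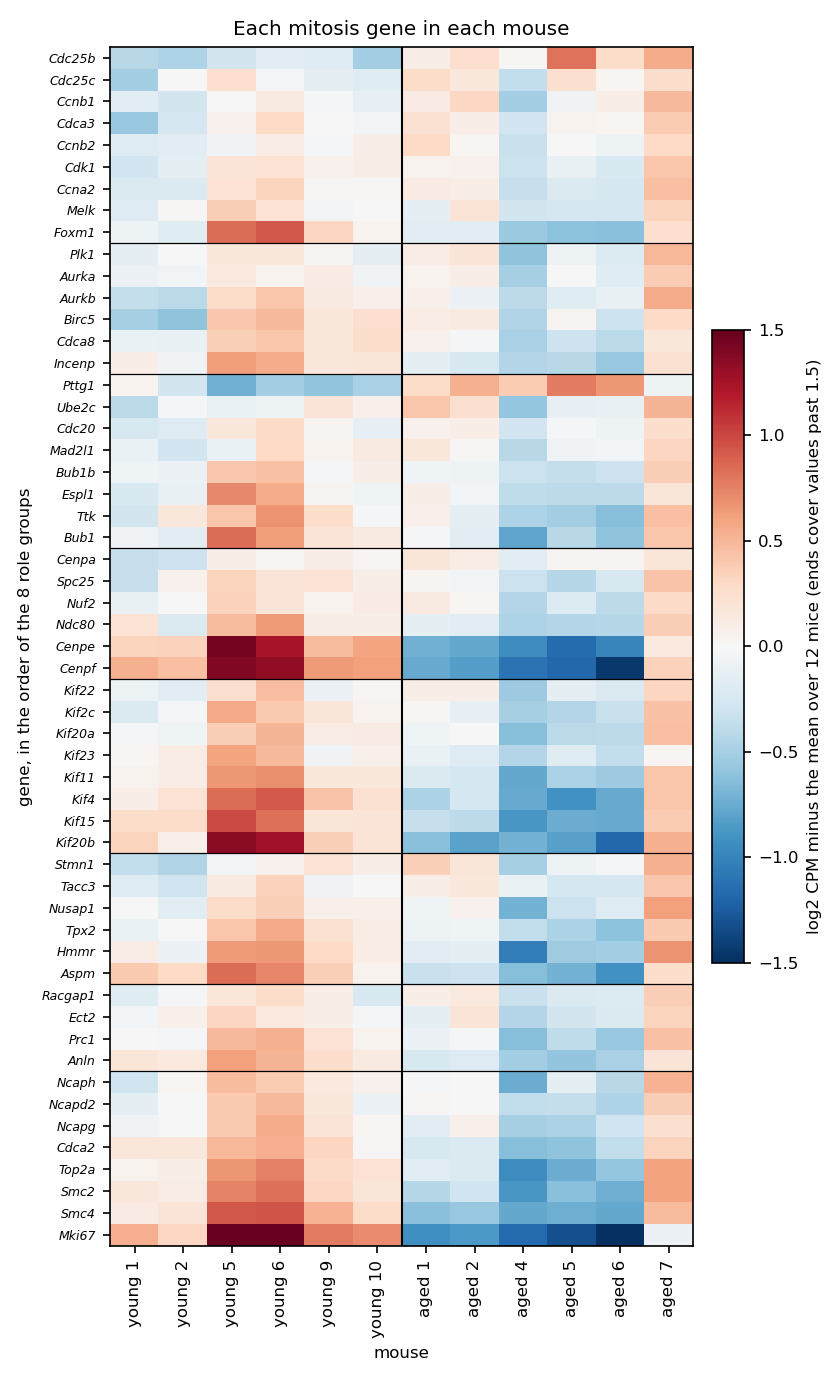
Log2 CPM of the 55 mitosis genes (rows, in the order of the 8 role groups) in each mouse (columns, young on the left and aged on the right) minus the mean over the 12 mice, with colours that end at 1.5 in either direction. Young mice 5 and 6 and aged mouse 7 are the reddest columns of their age, aged mouse 4 is among the bluest, and the row of Pttg1 shows the opposite colours.

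Because the members varied together, the promoters of 8 of them are given as examples, those of the lower genes Mki67, Cenpf, Cenpe and Top2a, of the uncalled genes Cdk1 and Ccnb1 and of the higher genes Cdc25b and Pttg1. Each line is the 250 bases before the start of transcription, 5′ to 3′, from RefSeq on GRCm38.p6, and capitals mark the letters of a CHR core (cell cycle genes homology region, TTTGAA or its reverse complement TTCAAA), through which the MuvB complexes are known to act on mitotic genes, and of a CCAAT box (CCAAT or its reverse complement ATTGG), the letters bound by NF-Y.
Mki67 (chr7:135716380-135716629, minus strand): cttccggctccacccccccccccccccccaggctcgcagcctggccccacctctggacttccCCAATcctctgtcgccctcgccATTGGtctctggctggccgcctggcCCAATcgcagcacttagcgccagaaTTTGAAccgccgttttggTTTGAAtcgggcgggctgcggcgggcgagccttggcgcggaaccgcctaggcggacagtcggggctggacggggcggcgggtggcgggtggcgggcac
Cenpf (chr1:189688087-189688336, minus strand): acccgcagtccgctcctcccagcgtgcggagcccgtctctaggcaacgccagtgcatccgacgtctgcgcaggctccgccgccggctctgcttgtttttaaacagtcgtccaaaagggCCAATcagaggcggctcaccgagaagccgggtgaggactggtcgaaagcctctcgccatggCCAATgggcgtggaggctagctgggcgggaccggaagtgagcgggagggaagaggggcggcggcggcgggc
Cenpe (chr3:135212313-135212562, plus strand): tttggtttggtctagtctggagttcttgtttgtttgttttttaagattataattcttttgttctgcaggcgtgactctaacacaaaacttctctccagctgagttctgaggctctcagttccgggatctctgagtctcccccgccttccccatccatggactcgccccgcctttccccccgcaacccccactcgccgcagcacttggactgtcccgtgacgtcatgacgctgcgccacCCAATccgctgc
Top2a (chr11:99024190-99024439, minus strand): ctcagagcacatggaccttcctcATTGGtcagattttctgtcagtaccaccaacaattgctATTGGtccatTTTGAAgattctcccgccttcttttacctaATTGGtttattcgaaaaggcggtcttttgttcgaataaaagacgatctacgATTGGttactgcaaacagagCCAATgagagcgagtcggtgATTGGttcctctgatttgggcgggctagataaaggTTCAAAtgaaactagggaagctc
Cdk1 (chr10:69352913-69353162, minus strand): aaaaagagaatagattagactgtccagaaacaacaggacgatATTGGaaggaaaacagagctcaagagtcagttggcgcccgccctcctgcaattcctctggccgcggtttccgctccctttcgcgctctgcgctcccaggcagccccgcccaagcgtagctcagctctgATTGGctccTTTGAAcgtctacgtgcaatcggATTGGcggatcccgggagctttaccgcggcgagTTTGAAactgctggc
Ccnb1 (chr13:100786487-100786736, minus strand): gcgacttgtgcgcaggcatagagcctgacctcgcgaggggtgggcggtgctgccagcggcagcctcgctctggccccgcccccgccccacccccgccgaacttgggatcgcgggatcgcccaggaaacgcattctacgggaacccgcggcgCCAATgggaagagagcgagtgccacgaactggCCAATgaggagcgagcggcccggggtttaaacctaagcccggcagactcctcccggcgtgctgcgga
Cdc25b (chr2:131186698-131186947, plus strand): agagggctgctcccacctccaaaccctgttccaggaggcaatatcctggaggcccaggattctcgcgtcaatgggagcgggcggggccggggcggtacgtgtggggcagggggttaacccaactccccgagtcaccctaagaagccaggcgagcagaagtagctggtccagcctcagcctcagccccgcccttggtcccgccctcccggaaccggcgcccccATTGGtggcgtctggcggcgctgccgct
Pttg1 (chr11:43425982-43426231, minus strand): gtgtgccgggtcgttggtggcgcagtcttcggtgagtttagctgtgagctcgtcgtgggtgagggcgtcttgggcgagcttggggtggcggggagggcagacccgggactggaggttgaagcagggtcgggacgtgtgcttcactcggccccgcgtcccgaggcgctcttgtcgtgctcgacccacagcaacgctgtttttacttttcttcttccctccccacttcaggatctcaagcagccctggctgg
In windows of 300 bases that also take in 50 bases after the start, found for 45 of the 55 members, 33 members (73.3%) held a CHR core and 32 (71.1%) a CCAAT box, against 17.9% and 37.4% of all 32851 promoters of that length. Among the 7380 promoters of tested genes the shares were 11.8% and 39.4%. Both sets of letters were in 28 members (62.2%), in 6.95% of all promoters and in 5.22% of those of tested genes. Mki67 held 2 CHR cores, which begin 116 and 98 bases before the start, and 3 CCAAT boxes, Cdk1 held 2 and 3, and Top2a 2 and 6, while Cenpf held its CHR core 3 bases into the transcript, outside the printed bases. Ccnb1 held 2 CCAAT boxes and Cenpe and Cdc25b 1 each without these CHR letters, and the window of Pttg1 held neither. The RefSeq start lay within 50 bases of the end of the counted gene model for 41 of the 45 members, and was farthest from it for Kif2c, by 3852 bases. The RefSeq start of Pttg1 lies 267 bases inside the gene model that was counted, so its printed bases lie within that model. A CHR core was found in 13 of 15 lower members, 20 of 28 members not called and neither of the 2 higher members. A match is a description of letters and no measured binding site.

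Exonic length moved with the differences. Over the 55 members, Spearman's rho between exonic length and log2 fold change was −0.83, and over all 9742 genes tested it was −0.48, both given as a description without a p because genes are not independent. After the length correction described below, rho was −0.51 over the members and 0.02 over all genes tested, and −0.54 over the members with GC content corrected too. In the shortest of 4 length classes with nearly equal numbers of tested genes (up to 1839 bases), none of 10 members was called lower, against 5.79% of all genes there, and 1 was called higher, Pttg1, against 44.5%. In the second class (up to 2890 bases) 1 of 13 members was lower, Ndc80, against 11.7%, and none was higher, against 25.1%. In the third (up to 4389.5 bases) 7 of 19 were lower, against 23.8%, and 1, Cdc25b, was higher, against 14.1%. In the longest class 11 of 13 were lower, against 50.6%, and none was higher, against 6.03%. Member medians in the 4 classes were 0.10, −0.04, −0.39 and −0.86, and those of all genes 0.31, 0.08, −0.06 and −0.27, so that the member median was the lower one in each class. The members of the longest class called lower were Mki67, Cenpf, Aspm, Cenpe, Kif20b, Anln, Smc2, Top2a, Kif15, Kif11 and Kif4, and Espl1 and Ncapd2 were not called.

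The mice differed in the same respect outside the members. The mean of 1778 non-members over 5000 bases minus that of 2822 non-members under 2000 bases, as log2 deviations from the mean of the 12 mice, was −0.40 to −0.07 in aged mice, with aged mouse 7 highest at −0.07, and 0.10 to 0.52 in young mice, with young mice 5 and 6 highest at 0.52 and 0.44. When counts were corrected for length within each library, 14 members were called lower, 13 of them among the 19 of the uncorrected comparison, and 2 higher, against 16.5% and 18.3% of all genes. The member median was −0.24 after that correction, and 51 of 55 values were below 0. Only Mki67 lower and Cdc25b higher did not overlap between the ages then, against 6.99% and 7.59% of all genes. Mki67 then fell by 1.46, Cenpe by 1.07, Cenpf by 0.98 and Smc4 by 0.84 on the log2 scale and all 4 remained called (adjusted p = 0.00072, 0.0016, 0.0048 and 0.0059), whereas 6 members lost their call. Of these, Top2a, Smc2, Kif11, Bub1 and Ncapg still had values of −0.41, −0.50, −0.41, −0.39 and −0.29, while that of Aspm went from −0.86 to −0.33. Cdca8, which was not called in the uncorrected comparison, was called with the correction (log2 fold change −0.51, adjusted p = 0.0091). Cdc25b and Pttg1 were called higher with it too, at 0.72 and 0.71. With a correction for length and GC content together, 17 members were called lower, against 16.1% of all genes. The part of transcript length in the member differences was not tested beyond these corrections.

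**Figure D4:**
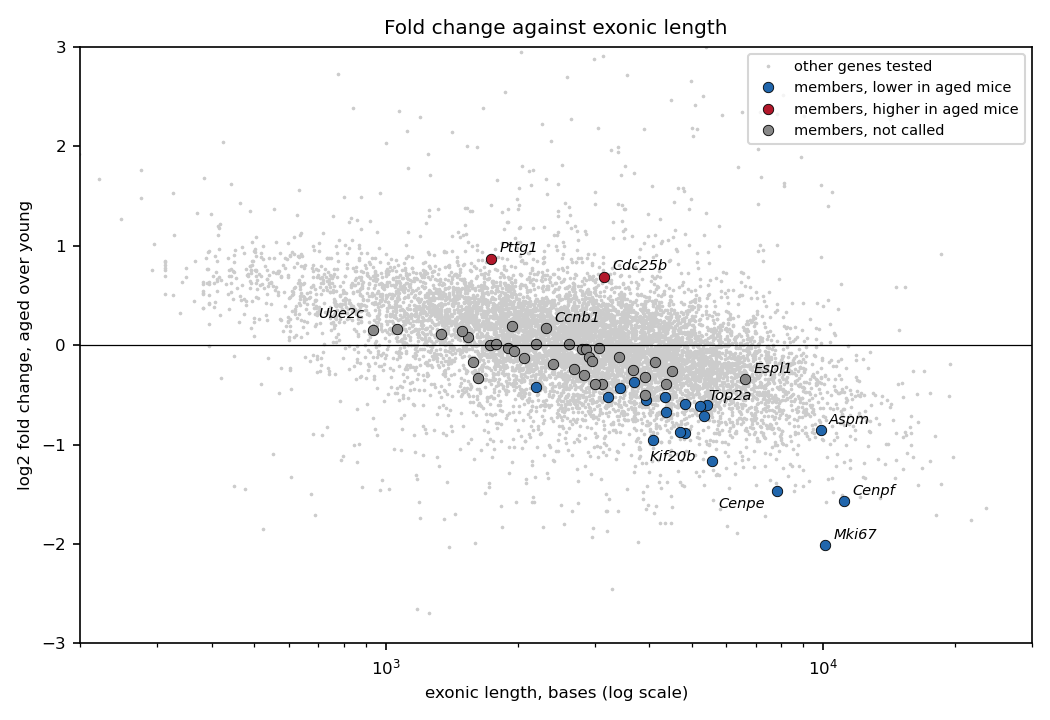
Log2 fold change of aged over young mice (y axis) against exonic length in bases (x axis, log scale) for the 55 mitosis genes, coloured by call, over the other genes tested in grey, of which 9 lie beyond the plotted fold changes and 25 beyond the plotted lengths. Lower members gather at the right, where Mki67, Cenpf, Cenpe and Aspm have the longest exons, and Cdc25b and Pttg1 lie above the other members.

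The other genes of mitosis were taken from 4 lists of 120 names, of which 118 were tested. Of these, 37 were called lower and 8 higher, with a median of −0.27, against 23.0% and 22.4% of all genes, and 34 were lower after the length correction, against 16.5%. Cohesin and condensin II genes were lower in 11 of 16 and higher in none, with a median of −0.45, and after the length correction 7 were lower and 1 higher, with a median of −0.27. Nipbl, the loader of cohesin, was at 121 ± 27.6 CPM in aged and 289 ± 53.3 CPM in young mice and led that list by fall and by p-value (log2 fold change −1.25 ± 0.14, adjusted p = 2.3e-05). The largest positive value there, 0.19 for Ncaph2, was not called. Of 35 kinetochore genes, 12 were lower and 2 higher. Casc5, which encodes the kinetochore scaffold Knl1, was at 32.8 ± 14.3 CPM in aged and 71.3 ± 22.9 CPM in young mice and fell by 1.12, while Cenpb, which binds centromeric repeats, rose by 0.83 from 24.5 ± 2.58 to 43.6 ± 7.27 CPM and Stra13, which encodes Cenp-X, rose by 0.40. With the length correction Cenpb stayed called at 0.82, while Stra13, with 636 exonic bases, had a value of −0.16 without a call.

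Kinases, spindle and cytokinesis genes outside the 55 were lower in 12 of 46 (26.1%, near the 23.0% of all genes) and higher in none, and 14 (30.4%) were lower after the length correction, against 16.5% of all genes. Cdk5rap2, a centrosome protein, fell by 0.96 and Numa1, which anchors the spindle poles, by 0.82, and Haus2 had the largest positive value, 0.20, without a call. Checkpoint and anaphase-promoting complex genes were lower in 2 of 21 and higher in 6, with a median of 0.06. Mad1l1, the partner of Mad2, fell by 0.60 and Cdc27, a subunit of the anaphase-promoting complex, by 0.24, and Anapc13, a small subunit of 408 exonic bases, rose by 0.74 and after the length correction had a value of 0.04 without a call, as did Cdc27 with 0.02. Among 37 DNA replication genes, 4 were lower (10.8%) and 1 higher (2.7%), with a median of −0.10, the largest changes being those of Chaf1a, a histone chaperone of replication (−0.85), and Gins4, of the replicative helicase (0.42). Gins4 was not called after the length correction (0.18).

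Of 22 tested transcriptional regulators of the cell cycle, 5 (22.7%) were lower and 3 higher, so that the share of lower genes was that of all genes tested (23.0%). Mybl2, the B-Myb partner of MuvB, had the largest fall, 0.76 on the log2 scale, from 8.19 ± 2.06 CPM in young to 4.88 ± 1.09 CPM in aged mice (adjusted p = 0.0062). Nfya, the NF-Y subunit that contacts the CCAAT letters, had the smallest p-value, at 57.5 ± 5.67 CPM in aged and 90.1 ± 12.4 CPM in young mice (log2 fold change −0.65 ± 0.09, adjusted p = 0.00013). Rbbp4, Lin37 and Nfyb were the 3 that rose, by 0.33, 0.29 and 0.19. With the length correction Lin37 had a value of −0.072 without a call, and without young mice 5 and 6 Lin37 and Nfyb were not called (0.25 and 0.15).

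Markers of other cells moved between the ages beside the mitosis genes. Their counts stand against 22.4% of all genes called higher and 23.0% called lower, or 18.3% and 16.5% after the length correction. In the shortest length class, 44.5% of all genes were called higher without that correction. All 8 tested macrophage markers were called higher in aged mice, with summed levels of 82.2 to 980.2 CPM in aged and 70.2 to 86.8 CPM in young mice, and C1qc, a complement chain, rose most (3.32). Aged mouse 1 held the sum of 980.2 CPM and aged mouse 7 one of 192.1 CPM. Of 9 neutrophil markers 5 were higher and none lower, S100a8 most (0.77), and after the length correction none was called. Of 7 tested progenitor markers 4 were higher, Prtn3, a primary granule protease, most (1.54), at 4.84 ± 0.82 CPM in aged and 1.60 ± 0.52 CPM in young mice, and the list summed to 431.8 to 516.4 and 397.8 to 495.9 CPM. After the length correction 3 of these progenitor markers were called higher and 1 was called lower. Of the 8 monocyte markers Ly6c2 rose by 0.54 and Itgam fell by 0.22, and neither was called after the length correction (0.12 and −0.055), while 1 other monocyte marker was then called lower. No erythroid or basophil and mast cell marker was tested. The erythroid list summed to 17 to 171 counts in aged and 3 to 12 counts in young mice. Hba-a1 and Hba-a2 had 0 counts in every mouse, which under the mapping quality filter does not show that their RNA was absent. The remaining lists had few tested markers. Of stromal and endothelial cells 3 were tested and Cxcl12 and Pecam1 rose (2.35 and 1.07), and of plasma cells 2 were tested and Xbp1 rose (0.31). Of dendritic cells 3 were tested and Clec9a fell by 2.45, where the median of the 3 was 0.05 and the highest value 0.44. No tested marker of B cells (1 tested, at 1.10), of T and NK cells (2 tested) or of megakaryocytes and platelets (1 tested) was called. The part of these cells in the mitosis genes was not tested.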

How the data were processed

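Total RNA of sorted M-MDSCs was sequenced in 12 libraries, as pairs of reads with the strand kept. The study gives 6 mice of each age, and each numbered library was taken as 1 of them, so p-values measure the spread between these libraries. Some libraries of neighbouring numbers were much nearer to each other than to the rest, as given under other observations. If these are not independent, the SEs and p-values given here are too small. No 2 libraries of an age agreed within counting noise. The authors counted fragments on exons with featureCounts 2.0.0 against mm10, as both ends on 1 chromosome, on the strand of the gene, keeping mapping qualities from 60 up, and deposited whole-number counts without normalization. The exonic length is a deposited column too. The aligner is not given in the sources used here.

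Counts were fitted with edgeR 4.0.16 in R 4.3.3 (filterByExpr, TMM factors, quasi-likelihood test of age, Benjamini-Hochberg adjustment over all 9742 genes tested, threshold 0.05), with SE from the F statistic. The biological coefficient of variation was 15.7%. Alternatives were DESeq2 (the study names this tool, and version 1.42.0 was run here), limma-voom of limma 3.58.1, other scalings and filters, corrections for length and for GC content (of the longest GENCODE transcript, known for 99.3% of genes tested), thinning and fits without single mice.

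The members and the gene lists were chosen with earlier results of these data known. Per-mouse values are given for the smallest p-value and the largest change of each role group, for members not called or called higher, and for Mki67, Top2a, Ccnb1 and Cdk1. Pathway lists are named by largest rise, largest fall, smallest p-value and up to 5 calls against the majority, and marker lists by the largest rise and fall among called genes. Genes in the check of the label were chosen after their values were seen. Kif4, Kif22 and Ccnb2 have pseudogenes, so their counts may be low under the mapping quality filter. RefSeq promoters were matched by symbol.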

Additional observations from a re-analysis of the deposited data

Results flagged for a closer look

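Among 110 groups of 6 values (55 members in 2 ages), 13 had a mouse whose gap to the nearest other was a larger share of the range of the group than Dixon's 95% critical value for 6 samples, where chance gives about 1 in 20 groups. All 13 were aged mouse 7, as the highest aged mouse. Its level was 173 CPM for Mki67, 376 CPM for Top2a, 152 CPM for Smc4, 94.5 CPM for Smc2 and 39.8 CPM for Cdca2. For kinetochore and checkpoint genes it was 46.3 CPM for Cenpf, 25.9 CPM for Cenpe, 18.7 CPM for Ndc80 and 53.5 CPM for Bub1b. For kinesins and the spindle gene Hmmr it was 127 CPM for Kif11, 52.4 CPM for Kif15, 24.7 CPM for Kif20b and 49.8 CPM for Hmmr. The members share this library, so the 13 are not independent.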

How the results depend on the processing

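The count of lower members was 14 to 22 under the other tools, scalings, filters, thinning and corrections tried, and 15 to 30 when 1 mouse was left out, with 30 without aged mouse 7. It was 9 without young mice 5 and 6, an alternative chosen after seeing the data, as were the fits without aged mouse 7 as well and with the length and GC correction. The count of higher members was 2 under every alternative, and the member median lay between −0.42 and −0.11. Members that did not overlap, in either direction, were 2 with the length correction (14.6% of all genes), 4 to 18 with 1 mouse left out, the 18 without aged mouse 7 (29.4% of all genes), and 18 without aged mouse 7 and young mice 5 and 6 (31.7%). Of the 19 lower members, 15 kept their call in each of 12 fits lacking 1 mouse, and Bub1, Ndc80, Ncapg and Top2a did not. A fit lacking 1 mouse can keep a library much like the one left out, as with young mice 5 and 6. Without both of these, 9 of the 19 kept their call. Mouse numbers 1, 2, 5 and 6 occur in both ages and share only a number, with correlations of −0.14, −0.07, −0.24 and −0.25 between the deviations of same-numbered mice. With the replicate block on these 8 mice, 17 members were lower, against 25 in the same 8 mice without it, and the number of all genes past the threshold was 3446 against 4394. No called member changed sign under any alternative, but uncalled members near 0 did, and the cause was not tested. Without young mice 5 and 6, the values were Ccna2 0.077, Cdk1 0.037, Aurkb 0.10, Birc5 0.074, Mad2l1 0.033, Kif22 0.014 and Racgap1 0.061. With library totals without TMM, the values were Ccnb2 −0.00026, Plk1 −0.077, Cdc20 −0.082 and Tacc3 −0.075. With the length correction, the values were Ccnb2 −0.12, Cdca3 −0.071, Plk1 −0.068, Cdc20 −0.14, Ube2c −0.23, Cenpa −0.14, Tacc3 −0.012 and Stmn1 −0.17. With the length and GC correction, the values were Ccnb2 −0.11, Cdk1 0.0044, Cdca3 −0.089, Plk1 −0.044, Cdc20 −0.14, Ube2c −0.23, Cenpa −0.14, Stmn1 −0.19 and Racgap1 0.020. With limma-voom, the values were Plk1 −0.024, Cdc20 −0.00011 and Tacc3 −0.0051. With the replicate block, the values were Plk1 −0.058, Mad2l1 0.044, Cdc20 −0.011 and Tacc3 −0.094. In the same 8 mice without it, the values were Plk1 −0.055, Mad2l1 0.028, Cdc20 −0.029 and Tacc3 −0.11. Without those 2 and aged mouse 7, the values were Plk1 −0.055 and Ube2c −0.0031. With upper quartile factors, the values were Aurka 0.012, Mad2l1 0.036 and Racgap1 0.0049. With at least 10 counts in every mouse, the value was Mad2l1 0.0037. With counts thinned to the smallest total, the value was Tacc3 −0.011. With 1 mouse left out, sign changes occurred in Aurka (−0.12 to 0.061), Aurkb (−0.20 to 0.031), Ccna2 (−0.15 to 0.025), Cdc20 (−0.044 to 0.072), Cdk1 (−0.14 to 0.021), Mad2l1 (−0.071 to 0.075), Plk1 (−0.11 to 0.11), Racgap1 (−0.12 to 0.030) and Tacc3 (−0.078 to 0.092). Some members rest on few counts, such as Pttg1 and Cdc25c, each with as few as 27 in a young mouse. Thinning to the smallest total left 2 members called higher, and the part of depth was not tested further.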

Other observations

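The summed level of the 55 mitosis genes was alike in young mice of neighbouring numbers. It was 2595 and 2593 CPM in young mice 1 and 2, 4052 and 4049 CPM in mice 5 and 6, and 3010 and 2836 CPM in mice 9 and 10. The summed neutrophil markers were 104018 and 105224 CPM, 77996 and 78643 CPM, and 118148 and 121388 CPM in the same order. Aged mice 5 and 6 had member sums of 1943 and 1876 CPM, and aged mice 1 and 2 had 2357.1 CPM each. Over all genes the same libraries were the nearest to each other. Chi-square per gene between 2 libraries of an age, which counting noise alone would hold near 1, was 1.72 for young mice 1 and 2, 2.65 for 9 and 10 and 4.14 for 5 and 6, against 22.4 for young mice 1 and 5, and among aged mice it was lowest for 1 and 2 (5.42) and for 5 and 6 (5.61). The labels give nothing that ties these mice together. Pttg1 was lowest where the other members were highest among the young mice, with 4.23 CPM in young mouse 5 and 7.23 CPM in young mouse 1.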
